A study of Homo sapiens with 10 samples.

Results

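The regions described here are H3K4me1 peaks of MDAMB231 cells that meet H3K4me3, that is, peaks of monomethylated lysine 4 of histone H3 that share at least 1 base with a peak of the trimethylated form. They were chosen by the overlap of the deposited H3K4me1 and H3K4me3 peak lists on chromosomes 1 to 22, so the presence, widths and scores of these marks are given as a description, with no test. Of 26355 H3K4me1 peaks, 4125 (15.7%) met H3K4me3 and 22230 met none. A meeting peak was termed centred when its midpoint lay inside an H3K4me3 peak, and flanking when its midpoint lay outside; 2094 were centred and 2031 were flanking. Under a stricter list, with histone peaks of score 100 or more, 1731 peaks met H3K4me3 and 674 of them were centred.

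MDAMB231 is an established triple-negative breast cancer line with mesenchymal features, and the cells were grown in serum-containing medium without treatment. The series holds 10 samples of these cells, with 2 each for ChIP-seq of H3K4me1, H3K4me3 and H3K27Ac, 2 for FAIRE-seq, 1 input for ChIP and 1 input for FAIRE. Each assay entered as 1 peak list from its combined samples, so no value carries a replicate error. The 95% intervals given are score intervals that cover counting error over peaks, which can be neighbours and are not independent replicates. A difference was called where its interval left out 0.

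H3K4me3 is the mark of active and poised promoters, placed around start sites by the SETD1 and MLL families of methyltransferases. H3K4me1 marks enhancers, and it also forms shoulders beside the H3K4me3 of a promoter, where fewer methyl groups have been added. H3K27Ac accompanies active promoters and enhancers alike. FAIRE recovers DNA that is poorly crosslinked to nucleosomes, and therefore marks open chromatin.

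The sequences of 2 open sites, both in centred peaks, are shown as examples from the regions with the highest H3K4me1 score of their class. Each is 300 bases at the midpoint of the tallest FAIRE peak inside a meeting H3K4me1 peak, on the plus strand of GRCh37 (hg19), and holds no annotated exon. Capitals mark CG pairs and the AP-1 letters TGANTCA, which read the same on either strand apart from the free base N. The ROBO4 site (chr11:124768600-124768899) lies in a centred peak, 986 bases upstream of the coding start of ROBO4, a guidance receptor gene on the minus strand, in sequence outside annotated genes. The chromosome 14 site (chr14:54678809-54679108) lies in a centred peak with no start within 5 kb, in intergenic sequence 184738 bases upstream of CDKN3.
ROBO4 site: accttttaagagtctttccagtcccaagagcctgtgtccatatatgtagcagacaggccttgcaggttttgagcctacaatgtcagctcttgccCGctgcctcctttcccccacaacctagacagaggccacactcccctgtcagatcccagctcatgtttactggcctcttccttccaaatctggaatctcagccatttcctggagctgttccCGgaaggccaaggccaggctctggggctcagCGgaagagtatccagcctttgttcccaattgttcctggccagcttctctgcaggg
chromosome 14 site: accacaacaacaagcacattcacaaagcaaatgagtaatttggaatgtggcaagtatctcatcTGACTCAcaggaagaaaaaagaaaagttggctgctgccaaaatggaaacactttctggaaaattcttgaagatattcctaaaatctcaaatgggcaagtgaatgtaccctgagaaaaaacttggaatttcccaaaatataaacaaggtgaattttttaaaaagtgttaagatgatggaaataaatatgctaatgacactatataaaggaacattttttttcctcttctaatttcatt
The ROBO4 window held 3 CG pairs and the chromosome 14 window 0, and their GC contents were 54.3% and 32%. The chromosome 14 window held 1 match to TGANTCA and the ROBO4 window held 0. Among windows of the same length at all 44697 FAIRE midpoints of chromosomes 1 to 22, 39.2% held these letters.

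The layout of the marks differed between the classes. The H3K4me1 peak spanned the whole H3K4me3 peak in 1230 of 2094 centred cases (58.7%) and in 520 of 2031 flanking cases (25.6%), and it crossed 1 edge of the H3K4me3 peak in 853 and 1511 cases. An H3K4me1 peak lying inside H3K4me3 was found 11 times. Centred peaks shared a median of 1590 bases with H3K4me3, or 53.6% of their length. Flanking peaks shared 1372 bases, or 31.4%, and their midpoints lay a median of 610 bases outside the H3K4me3 edge (quartiles 235.5 and 1337). Most members (3955) met a single H3K4me3 peak and 170 met more, up to 4.

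Seen from the H3K4me3 list, 3964 of 17403 peaks met H3K4me1. Of these, 1903 held a centred H3K4me1 peak alone, 1777 were flanked on 1 side and 148 on both sides. A further 136 had a centred and a flanking peak together. Separate H3K4me1 peaks on both sides were thus less frequent than a single one, while a single H3K4me1 peak that spanned the H3K4me3 peak also reached past both edges.

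Flanking peaks were wide and centred peaks were weak. The median H3K4me1 width was 3316 bases (quartiles 2317 and 4862) for centred, 4669 (3164 and 6922) for flanking and 2940 (2231 and 4191) for H3K4me1 peaks that met no H3K4me3. Scores are those of the MACS peak caller, -10 log10 of its p-value. The median H3K4me1 score was 87.5 for centred peaks, 119.6 for flanking peaks and 117.3 for the others. Scores of 100 or more were held by 41.6% of centred and 59% of flanking peaks.

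The share of centred peaks fell along the H3K4me1 score while that of flanking peaks did not. Among H3K4me1 peaks with scores from 50 to under 100, 10.8% were centred and 7.39% flanking. At scores of 400 or more, 3.77% were centred (84 of 2228) and 10.8% flanking (240). The H3K4me3 side is coarser, since 57.3% of all H3K4me3 peaks held a score of 3100 or more and are not ranked among themselves. Such scores belonged to the partner of 46.6% of centred and 67.4% of flanking peaks.

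H3K27Ac was nearly always present where the methylation marks met. It overlapped 4008 of 4125 meeting peaks (97.2%, 95% interval 96.6 to 97.6) and 15639 of 22230 other H3K4me1 peaks (70.4%), a difference of 26.8 percentage points (26 to 27.6). The share was higher in meeting peaks on 22 of 22 chromosomes. The difference was 19.8 points over 10 classes of peak width, cut to hold about equal numbers of peaks. Where H3K27Ac was present, its highest score had a median of 1548 in centred, 2234 in flanking and 514 in other H3K4me1 peaks. H3K27Ac and both methylation marks were called against the same ChIP input, and the part of that input in their overlap was not tested.

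Between the classes, H3K27Ac depended on where it was counted. Anywhere in the H3K4me1 peak, it was found in 98.8% of flanking and 95.6% of centred peaks, a difference of 3.16 points (2.18 to 4.21). Within 500 bases of the H3K4me1 midpoint the order turned, with 85.1% of flanking and 95.1% of centred peaks (-10.0 points, -11.9 to -8.25). The class rule places centred midpoints inside H3K4me3 and flanking ones outside, so the midpoint value is not independent of it. With histone peaks of score 100 or more the whole-peak difference was 1.05 points (-0.219 to 2.59) and was no longer called. With centred taken as H3K4me3 cover of at least 50% of the H3K4me1 peak, it was 2.08 points (0.945 to 3.38). Acetylation in flanking peaks thus lay toward the H3K4me3 side of the region. Base by base, 95.2% of the sequence that flanking peaks shared with H3K4me3 carried H3K27Ac, against 58.8% of their H3K4me1-alone sequence and 60.9% of other H3K4me1 peaks.

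**Figure D1:**
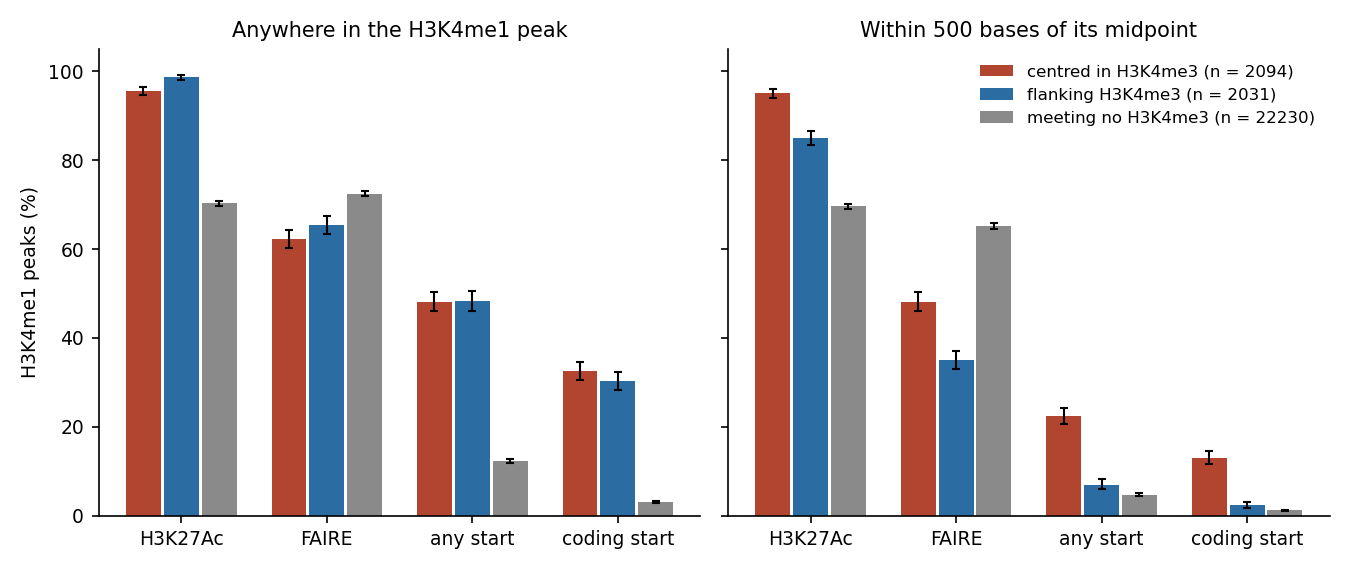
Percent of H3K4me1 peaks with H3K27Ac, FAIRE, any start site or a protein-coding start (vertical axis), for 2094 centred, 2031 flanking and 22230 other peaks, counted anywhere in the peak (left) or within 500 bases of its midpoint (right). Bars are shares and lines are 95% Wilson intervals. The centred and flanking bars of H3K27Ac and FAIRE change order between the panels.

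FAIRE was less frequent in meeting peaks than in other H3K4me1 peaks. It overlapped 2633 of 4125 meeting peaks (63.8%) and 16112 of 22230 others (72.5%), a difference of -8.65 points (-10.2 to -7.08). The share in meeting peaks was the higher one on 2 of 22 chromosomes. Meeting peaks were the wider ones, and the gap grew when width was held: it was -16.2 points over 10 width classes and -23.5 points within 500 bases of the midpoint. With only the taller FAIRE peaks, those of at least median height, the whole-peak difference was -0.847 points (-2.5 to 0.813) and was not called. FAIRE heights are the deposited peak heights, whose scale is not given in the sources used here. Where FAIRE was present, the highest FAIRE peak had a median height of 78.5 in meeting and 71.7 in other H3K4me1 peaks.

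Most meeting peaks carried both H3K27Ac and FAIRE, and fewer carried H3K27Ac without FAIRE. Both were found in 62.8% of meeting and 59.2% of other H3K4me1 peaks, a difference of 3.58 points (1.96 to 5.18) that turned to -6.57 points (-8.07 to -5.08) over width classes. H3K27Ac without FAIRE was found in 34.4% of meeting peaks and 11.2% of the others, a difference of 23.2 points (21.7 to 24.7). The share was 34.7% in centred and 34.1% in flanking peaks, a difference of -0.646 points (-3.54 to 2.25) that turned to 9.35 points (6.52 to 12.2) over width classes. FAIRE without H3K27Ac, which made up 13.3% of the other peaks, was found in 44 meeting peaks (1.07%). Peaks with neither were 73 (1.77%) among meeting and 16.4% among other peaks.

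Between flanking and centred peaks the FAIRE comparison turned with the counting rule. Anywhere in the peak, FAIRE was found in 65.4% of flanking and 62.3% of centred peaks, a difference of 3.16 points (0.23 to 6.09). Over 10 width classes the difference was -7.22 points (-10.1 to -4.37), and within 500 bases of the midpoint it was -13.1 points (-16.1 to -10.1), with 35% of flanking and 48.1% of centred peaks. Other rules enlarged the positive difference. It was 5.54 points (2.49 to 8.57) with the taller FAIRE peaks and 5.04 points (1.63 to 8.44) with midpoints at least 250 bases from an H3K4me3 edge. With centred taken as H3K4me3 cover of at least 50%, it rose to 19.2 points (16.0 to 22.4). With histone scores of 100 or more it was 0.0483 points (-3.95 to 4.16) and was not called. The sign of this comparison therefore depends on the rule, and no single order of the classes is given for FAIRE. As with H3K27Ac, the value within 500 bases of the midpoint is not independent of the class rule.

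Within meeting H3K4me1 peaks, FAIRE midpoints were denser in the part shared with H3K4me3 than in the part with H3K4me1 alone. Sequence shared with H3K4me3 held 327 FAIRE midpoints per Mb in centred peaks (95% Poisson interval 310 to 345) and 264 in flanking peaks (246 to 282). The H3K4me1-alone sequence of the same peaks held 89.2 (80.5 to 98.5) and 158 (150 to 167) per Mb. The other H3K4me1 peaks held 263 per Mb (259 to 266), and the H3K4me3-alone sequence of H3K4me3 peaks that met H3K4me1 held 275 (259 to 292), so density as such was not particular to shared sequence. H3K4me3 peaks that met no H3K4me1 held 167 (162 to 171), near the H3K4me1-alone part of flanking peaks. The H3K4me1-alone shoulders of centred peaks were thus the poorest in FAIRE among these parts.

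**Figure D2:**
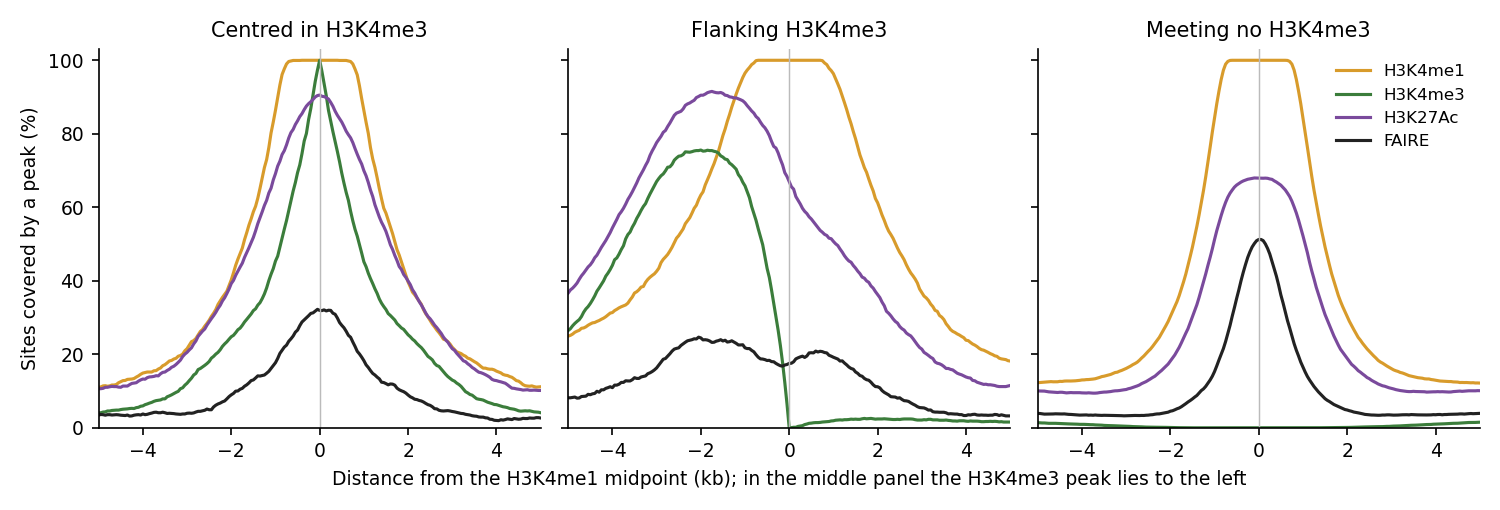
Percent of sites covered by a peak of each list (vertical axis) against the distance from the H3K4me1 midpoint in kb, for centred, flanking and other H3K4me1 peaks. Flanking peaks are turned so that H3K4me3 lies to the left. FAIRE covered 31.9% of centred, 17.5% of flanking and 51.2% of other midpoints.

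Start sites, the 5' ends of GENCODE transcripts, were more frequent in meeting peaks. A start of any transcript lay in 1991 of 4125 meeting peaks (48.3%) and 2752 of 22230 others (12.4%), a difference of 35.9 points (34.3 to 37.5). The difference was 10.1 points when the start had to lie within 500 bases of the midpoint. Protein-coding starts lay in 31.5% of meeting and 3.13% of other peaks. Annotation of the midpoint was intronic in 66.7% of meeting and 64.8% of other peaks, exonic in 12.6% and 5.06%, and intergenic in 20.7% and 30.2%.

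Whole flanking and centred peaks held start sites at shares that were not told apart (48.3% and 48.2%, difference 0.165 points, -2.88 to 3.21). Within 500 bases of the midpoint lay a start in 22.4% of centred and 6.99% of flanking peaks (-15.5 points). This value is not independent of the class rule, since centred midpoints lie inside H3K4me3 peaks, and 13466 of 17403 H3K4me3 peaks held a start. Over 10 width classes the whole-peak difference was -8.44 points (-11.5 to -5.41), and with classes set by H3K4me3 covering at least 50% of the H3K4me1 peak it was -5.55 points (-8.79 to -2.3). For protein-coding starts it was -2.29 points (-5.12 to 0.548), which was not called, and -8.90 points (-11.7 to -6.05) over width classes. The H3K4me3 partner itself held a start in 80.6% of flanking and 66.3% of centred cases.

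Flanking peaks lay mostly on the transcribed side of the promoter. Among 1299 flanking peaks whose H3K4me3 partner held protein-coding starts of 1 strand, 891 (68.6%, 66 to 71.1) lay beyond the H3K4me3 peak in the direction of transcription and 408 on the opposite side. The share was 68.9% for genes on the plus strand and 68.3% for genes on the minus strand, and it was over 50% on 21 of 22 chromosomes. The H3K4me3 peaks were themselves displaced the same way, their midpoints lying a median of 326 bases downstream of the start. H3K4me1 midpoints lay a median of 2572 bases from the start on the transcribed side and 2016 bases on the opposite side. H3K4me1 peaks that missed the H3K4me3 peak by at most 2000 bases were on the transcribed side in 116 of 209 cases (55.5%, 48.7 to 62.1), an interval that held 50%.

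Transcribed-side and opposite-side flanking peaks differed in FAIRE. This comparison was chosen after the values were seen. FAIRE overlapped 461 of 891 transcribed-side peaks (51.7%) and 336 of 408 opposite-side peaks (82.4%), a difference of -30.6 points (-35.3 to -25.5). Their widths were alike, with medians of 4439 and 4465 bases, and the difference over width classes was -30.4 points. Their H3K4me1 scores were not alike, with medians of 103.8 (97.1 to 110.4) and 124.9 (115 to 144), and score was not held. Counted within 500 bases of the midpoint, FAIRE was found in 23.6% and 53.4%, and H3K27Ac in 77.6% and 93.9%. Anywhere in the peak, H3K27Ac was found in 99.3% and 98.0%, a difference of 1.29 points (0.0424 to 3.18) in the other direction, which was not called over width classes (-0.148 to 2.74). A start of any transcript lay in 43.7% of the transcribed-side and 75.2% of the opposite-side peaks. Upstream flanking peaks thus overlapped FAIRE more often than downstream ones, and the order for H3K27Ac depended on where it was counted. Start sites inside the peaks were not held, and their part in the FAIRE difference was not tested.

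**Figure D3:**
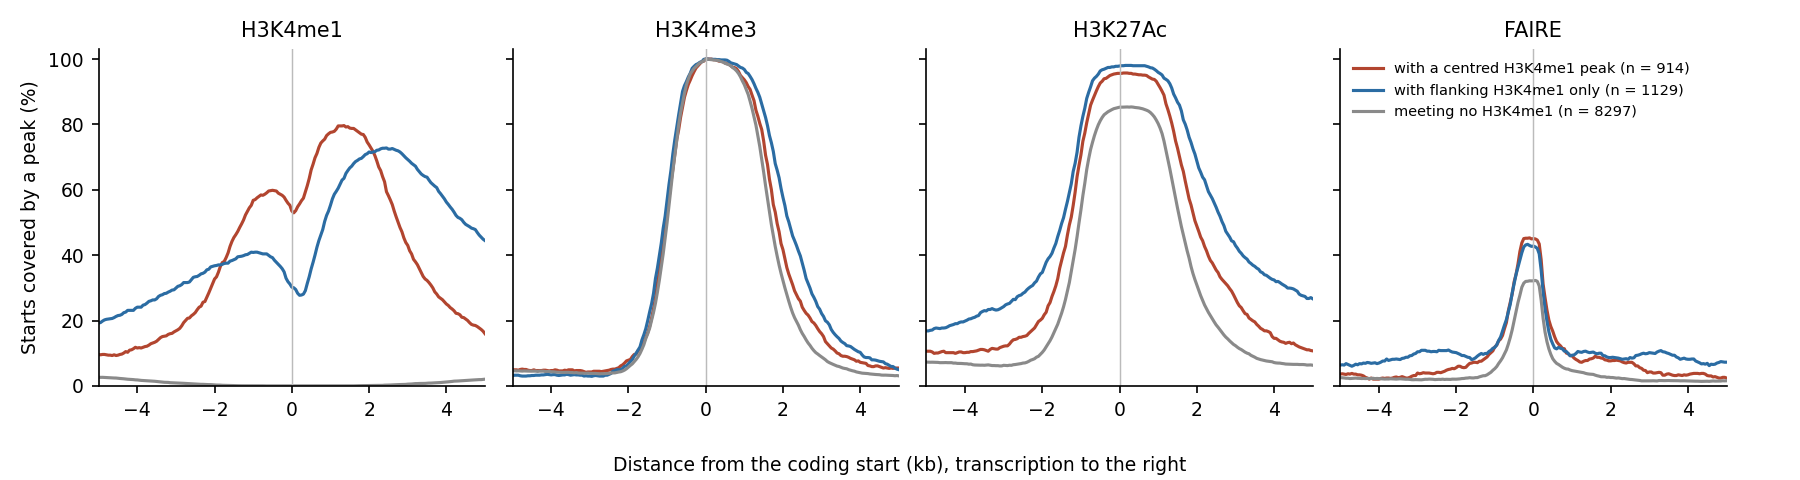
Percent of starts covered by a peak of each list (vertical axis) against the distance from the coding start in kb, transcription to the right, for H3K4me3 peaks with coding starts of 1 strand. Lines are H3K4me3 peaks with a centred H3K4me1 peak (n = 914), with flanking H3K4me1 peaks only (n = 1129) and with none (n = 8297). At 1000 bases from the start H3K4me1 is higher downstream than upstream in both meeting classes, and at 250 bases the order is turned.

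Averaged over these starts, H3K4me1 cover at 1000 bases from the start was higher downstream than upstream. At 250 bases the order turned. Cover there was 35.9% upstream and 27.8% downstream in the flanking class, and 58.3% and 56.7% in the centred class. The rule of the flanking class places H3K4me1 midpoints outside H3K4me3, and its part in the low cover at the start was not tested. The shape with both sides is an average of peaks that mostly lie on 1 side. In the flanking class H3K4me1 covered 40.8% of positions 1000 bases upstream, 30.2% of starts and 55.3% of positions 1000 bases downstream. The highest cover in this class was 72.8%, at 2450 bases downstream. In the centred class H3K4me1 covered 56.8% at 1000 bases upstream, 53.5% of starts and 77.6% at 1000 bases downstream. The highest cover in this class was 59.8% upstream, at 500 bases, and 79.6% downstream, at 1350 bases. FAIRE covered 45.1% of starts in the centred, 42.8% in the flanking and 32.2% in the class meeting no H3K4me1. Whether the open site and the H3K4me1 dip coincide at single promoters was not tested.

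H3K4me3 peaks that met H3K4me1 carried FAIRE in 67.5% of cases (2677 of 3964), against 38.3% of those that met none, a difference of 29.2 points (27.5 to 30.8). H3K27Ac was present in 96.5% and 76.7% (19.8 points, 18.8 to 20.6). Both differences held on 22 of 22 chromosomes. Coding starts were the less frequent among meeting peaks, 62.2% against 69.8% (-7.59 points, -9.3 to -5.9), and the difference was -13.8 points within 500 bases of the H3K4me3 midpoint. Wide H3K4me3 peaks of 5 kb or more met H3K4me1 in 276 of 707 cases (39%), and narrower ones in 22.1%.

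H3K4me3 peaks with no start site met H3K4me1 more often (1150 of 3937, 29.2%) than those with one (2814 of 13466, 20.9%). Among H3K4me3 peaks without a start, FAIRE was present in 71.5% of those that met H3K4me1 and 24.2% of those that did not, a difference of 47.3 points (44.1 to 50.2), and H3K27Ac in 94.3% and 47.6%. With a start the FAIRE shares were 65.9% and 42%, a difference of 23.9 points (21.9 to 25.8). The contrast in FAIRE was thus the larger among H3K4me3 peaks that held no start, as the intervals do not overlap. H3K4me3 score was not held in this comparison.

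Centred peaks whose H3K4me3 partner held no start (706 of 2094) differed from those with one. Their H3K4me3 partner was narrow and weak, with a median width of 1418 bases and a median score of 135, against 2950 bases and 3100 where a start was present. The H3K4me1 score was higher, 123 against 78.3. FAIRE overlapped 75.2% of them (71.9 to 78.3) and 55.7% of centred peaks with a start (53.1 to 58.3). Within 500 bases of the midpoint the shares were 69.5% and 37.2%. Flanking peaks without a start in their partner (394) showed the same traits, with a median partner width of 1400 bases, a partner score of 127, an H3K4me1 score of 203 against 110.4 with a start, and FAIRE in 82.5% of cases against 61.3%.

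The sequence at the centre of meeting peaks differed between the classes. In 300-base windows at the H3K4me1 midpoint, the median CpG ratio, observed over expected, was 0.288 for centred, 0.196 for flanking and 0.168 for other peaks. Windows with a GC content over 50% and a CpG ratio over 0.6 made up 7.5% of centred, 1.13% of flanking and 0.27% of other peaks. H3K4me3 midpoints reached this in 44.1% of peaks that met H3K4me1 and 68.4% of those that did not. Among H3K4me3 peaks with a coding start the shares were 61.3% (59.4 to 63.2) and 78.1% (77.3 to 78.9). H3K4me3 midpoints were thus less often CpG-rich where H3K4me1 was met. Composition at the start sites themselves was not measured.

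AP-1 factors, dimers of the FOS and JUN families, bind TGANTCA. These letters lay within 150 bases of the midpoint in 593 of 4125 meeting peaks (14.4%) and 6595 of 22230 other H3K4me1 peaks (29.7%), a difference of -15.3 points (-16.5 to -14). The share was 16.1% in centred and 12.6% in flanking peaks. At FAIRE midpoints, an alternative added after the data were seen, the difference was -9.07 points (-10.7 to -7.37). A match is a description of letters and not a bound site.

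Within flanking peaks the letters changed across the H3K4me3 edge. FAIRE windows in the H3K4me1-alone part held TGANTCA in 580 of 1284 cases (45.2%), and those in the shared part in 289 of 847 (34.1%), a difference of 11.1 points (6.82 to 15.2). For comparison, FAIRE windows held it in 47.7% of cases in other H3K4me1 peaks and in 12.5% in H3K4me3 outside H3K4me1. In centred peaks the shares were 38.9% (34.2 to 43.9) and 35% (32.5 to 37.6), with intervals that overlap. The letters of the GC box, GGGCGG on either strand, ran the opposite way, at 5.69% of H3K4me1-alone and 20.1% of shared windows in flanking peaks. Open sites shared by the marks were thus intermediate in both sets of letters. The GC box was chosen after the data were seen.

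**Figure D4:**
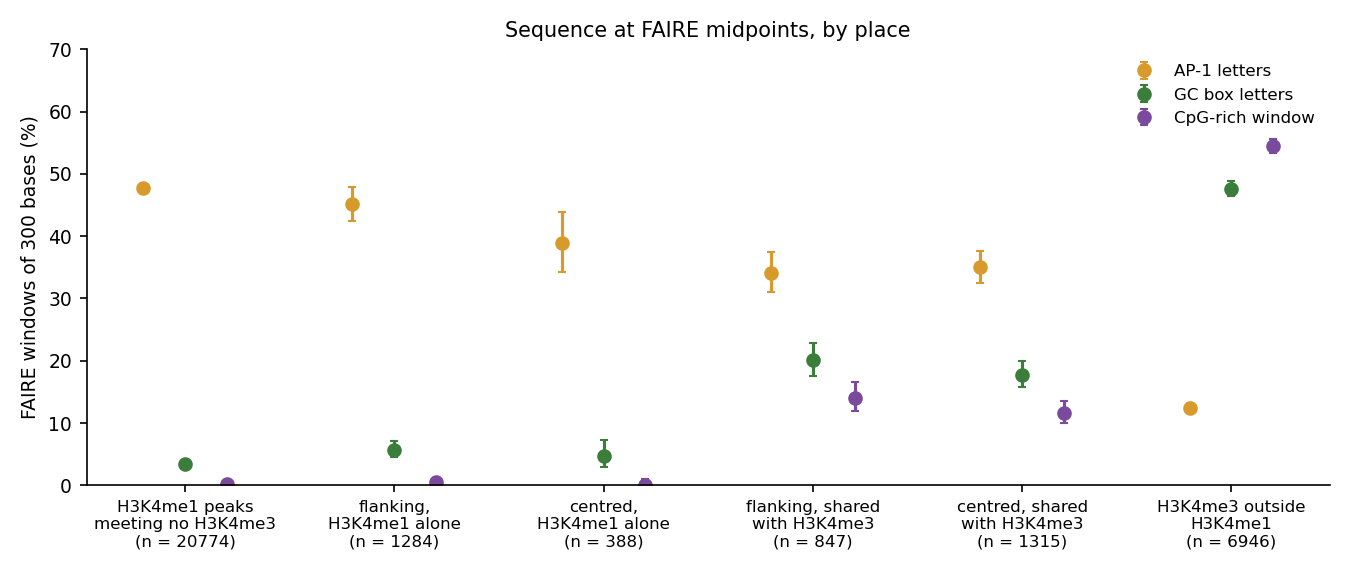
Percent of 300-base windows at FAIRE midpoints (vertical axis) that held TGANTCA (AP-1), GGGCGG (GC box) or a CpG-rich composition, by place. Points are shares with 95% Wilson intervals. AP-1 letters go from 47.7% in other H3K4me1 peaks to 12.5% in H3K4me3 outside H3K4me1, and the shared parts lie between.

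The centred peaks with a coding start and the highest H3K4me1 scores were at ROBO4, SYNPO, CELF2, ADAM8 and ABCC2. The first, at ROBO4 (chr11:124764165-124772322), had an H3K4me1 score of 1034 and contained the whole H3K4me3 peak, whose score was 363. SYNPO, which encodes an actin-associated protein of podocytes, followed with 1029 (chr5:150014419-150025907) around an H3K4me3 peak of 1773 bases. At CELF2, a splicing regulator gene, the scores were 785 for H3K4me1 and 539 for H3K4me3. ADAM8, a membrane metalloprotease gene, was the exception with an H3K4me3 score of 3100, over 5133 bases (chr10:135085838-135094816). ABCC2, which encodes an export pump, had an H3K4me3 score of 147 beside an H3K4me1 score of 616. In each of these regions the H3K4me1 peak spanned the H3K4me3 peak.

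Flanking peaks whose H3K4me3 partner held a coding start numbered 1509. The highest H3K4me1 scores of this group were at ATXN1 (chr6:16762021-16772364, H3K4me1 score 1349), CORO1C (1343), CAST (1334), RFFL (1313) and PHLDA1 (1134). All had an H3K4me3 partner of score 3100. Their H3K4me1 peaks crossed 1 edge of it and shared from 1201 bases at CAST, the calpain inhibitor gene, to 2274 bases at ATXN1. The H3K4me1 midpoint lay 4346 bases from the nearest coding start at CAST and 10155 bases at PHLDA1. The peak at PHLDA1 was 14030 bases wide and held 6 FAIRE midpoints.

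Centred peaks with no start within 5 kb numbered 482 and included the strongest H3K4me1 scores of either centred group. The first (chr14:54672279-54681237) had an H3K4me1 score of 2118, an H3K27Ac score of 3100 and 4 FAIRE midpoints, while its H3K4me3 peak of 2474 bases scored 222. The second (chr4:81225779-81232154, score 1210) lay in the gene body of FGF5, a growth factor gene. The other 3, on chromosomes 6, 10 and 4, scored 953, 875 and 752, with H3K4me3 scores of 50.1, 56.2 and 66.6. H3K4me3 there was close to the lowest score listed, 50.01, so these regions met the rule through weak H3K4me3 peaks.

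At the gene level, 12552 of 18893 protein-coding genes of chromosomes 1 to 22 had H3K4me3 at a coding start, and for 2731 of them (21.8%) that H3K4me3 peak met H3K4me1. A centred H3K4me1 peak was found for 1307 genes and flanking peaks alone for 1424. Counts over gene lists are read against this 21.8%, with no test.

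Markers of the line were looked up first. H3K4me3 lay at a coding start of VIM, CD44, CAV1 and AXL, 4 of 4 markers chosen for this line, and met H3K4me1 at VIM, CAV1 and AXL. It also lay at 5 of 6 epithelial and luminal markers (EPCAM, ESR1, PGR, GATA3 and FOXA1, with CDH1 the exception), and met H3K4me1 at EPCAM alone. Among leukocyte, endothelial, liver and glial markers, GFAP was the 1 of 6 with H3K4me3, and it did not meet H3K4me1; a further marker, PECAM1, was not matched in the annotation. Presence of H3K4me3 at a start did not by itself separate the markers of the line from the luminal genes.

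Integrin and caveola genes met H3K4me1 at most of their promoters. Of 15 integrin and caveola genes, all with H3K4me3 at a start, 11 met H3K4me1 (73.3%, 48 to 89.1), 4 with a centred peak. ITGA6, a laminin receptor subunit, had a flanking H3K4me1 peak of score 829 whose midpoint lay 9447 bases downstream of the start. ITGA3, another laminin receptor subunit, had one of score 642 at 7036 bases upstream. ITGB5, a vitronectin receptor subunit, and ITGA2, a collagen receptor subunit, had flanking peaks of score 441 and 428. CAV1, the main structural protein of caveolae, had a flanking peak of score 163 upstream of its start.

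Inflammatory cytokine genes met H3K4me1 at most promoters that had H3K4me3. H3K4me3 lay at 10 of 15 starts and met H3K4me1 at 7 of these (70%, 39.7 to 89.2), with a centred peak for 5. The neutrophil chemokine gene CXCL8 had a centred peak of score 310 with its midpoint 205 bases downstream of the start, an H3K4me3 score of 926 and a FAIRE height of 152. IL6 had an H3K4me1 score of 93.7, with the midpoint 50 bases upstream of the start, and CXCL2 one of 253 at 204 bases upstream. IL1B was flanking, with an H3K4me1 score of 322 over an H3K4me3 score of 155. The H3K4me3 scores at CXCL8, IL6 and IL1B were under the 3100 that most H3K4me3 peaks held, and CXCL2 had a score of 3100.

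YAP and TEAD genes, which read out the Hippo pathway, met H3K4me1 at 7 of 14 promoters (50%, 26.8 to 73.2). The matricellular genes CCN1 and CCN2 had flanking peaks of score 536 and 352, lying 8464 and 2447 bases upstream of the start by midpoint. The H3K4me3 peak of CCN1 also met a centred H3K4me1 peak of score 93.7. ANKRD1, an ankyrin repeat protein gene, had one of score 313 with a FAIRE height of 151. AJUBA, an adaptor that binds LATS kinases, had a centred peak of score 329. The TEAD genes TEAD1, TEAD2, TEAD3 and TEAD4 had H3K4me3 that did not meet H3K4me1.

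Feedback genes of ERK signalling met H3K4me1 at 10 of 19 promoters (52.6%, 31.7 to 72.7), 7 of them with flanking peaks only. PHLDA1 stood first, followed by DUSP6, an ERK phosphatase, with a score of 361 at 6469 bases downstream. SPRED2, an inhibitor of RAS to RAF signalling, had an H3K4me1 score of 207, and ETV5, an ETS factor, 179. EGR1, IER2 and DUSP1 had H3K4me3 without H3K4me1, while IER3 met it.

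AP-1 genes met H3K4me1 at 2 of 11 promoters (18.2%, 5.14 to 47.7). FOSL2 had a flanking peak of score 120.0 upstream, and JUND one of 66.9 downstream. A longer list of mesenchymal genes had H3K4me3 at 15 of 23 and met H3K4me1 at 4 of the 15 (26.7%, 10.9 to 52). ZEB1, a repressor of epithelial genes, had a flanking peak of score 251, the filament gene VIM a centred one of 145, the matrix genes TGFBI and FN1 flanking ones of 106 and 98.6. At TGFBI the H3K4me1 peak held no H3K27Ac peak.

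Epithelial genes met at 2 of 16 promoters (12.5%, 3.5 to 36) and luminal genes at 1 of 9 (11.1%, 1.99 to 43.5). The adhesion gene EPCAM had a flanking peak of score 68.3, OVOL2, a zinc finger gene of epithelia, a centred one of 68.2 with neither H3K27Ac nor FAIRE, and the receptor gene ERBB2 a centred one of 57. These were low H3K4me1 scores beside the median of 100.2 over all meeting peaks. Intervals of both lists held the 21.8% of all genes.

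Genes of the H3K4 methylation enzymes and their partners, a list that also holds the acetyltransferases CREBBP and EP300, met at 3 of 16 promoters (18.8%, 6.59 to 43), each by a flanking peak without FAIRE. KMT2A, a methyltransferase, had a score of 253, and the demethylases KDM5B and KDM1B had 171 and 55.2. Spindle checkpoint and kinetochore genes met at 10 of 18 (55.6%, 33.7 to 75.4). BUB3 had a flanking peak of score 330 downstream of its start, MAD2L1 one of 119.5 upstream and BUB1 one of 113.5 downstream. MAD1L1 had a centred peak of 159 at an internal start, where the H3K4me3 score was 80.8.

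Ribosomal protein genes were near the share of all genes. Cytosolic ones met H3K4me1 at 19 of 76 promoters (25%, 16.6 to 35.8), led by RPL35A with a flanking peak of score 401 and followed by RPL9 with a centred peak of 195, RPL34 with 178 and RPL37 with 149. Mitochondrial ones met at 16 of 78 (20.5%, 13 to 30.8), with MRPL14 at 216, MRPL13 at 128, MRPS24 at 126 and MRPS28 at 108. Of the 19 cytosolic genes, 13 had flanking peaks only.

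Zinc finger genes of chromosome 19 and replication-dependent histone genes seldom met H3K4me1. The former met at 9 of 216 promoters (4.17%, 2.21 to 7.73), with ZNF792 (238, flanking), ZNF888 (145, centred), ZNF235 (102, centred) and ZNF491 (85.1, centred) the highest. Histone genes met at 3 of 38 (7.89%, 2.72 to 20.8), where H2AC11 and H2BC11 share a flanking peak of score 147 and H1-2 had a centred one of 54.4. Of 380 olfactory receptor genes, 1 had H3K4me3 at a start and it did not meet H3K4me1.

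**Figure D5:**
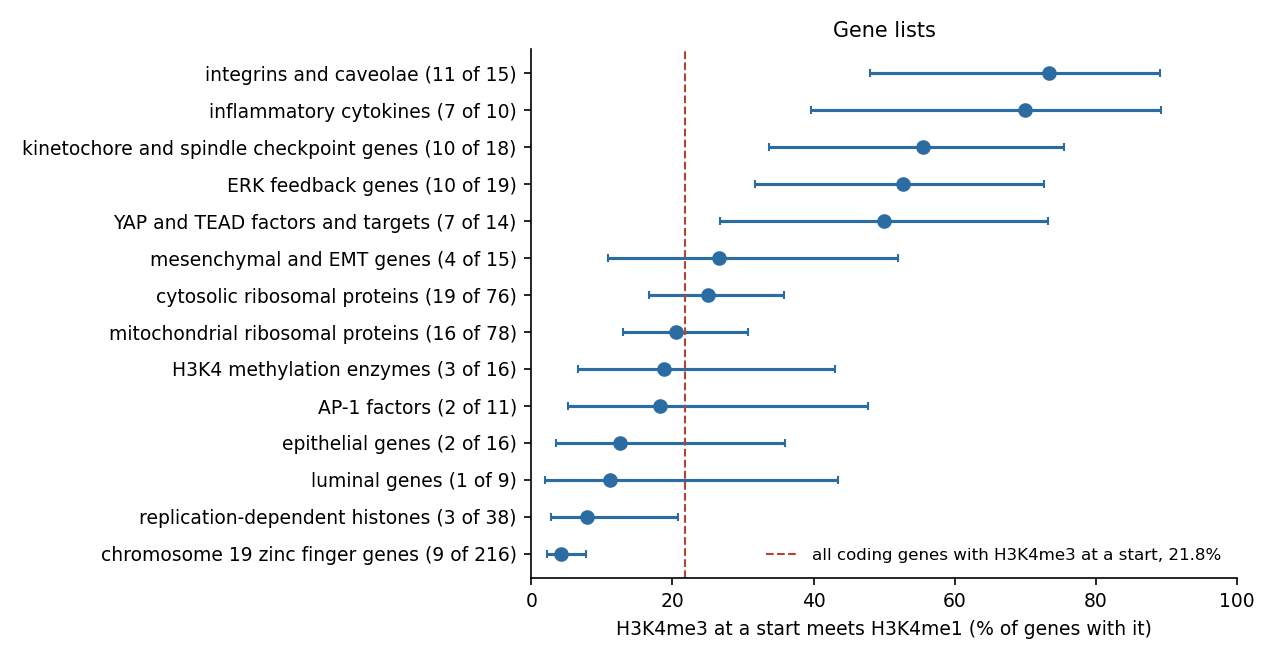
Percent of genes with H3K4me3 at a coding start whose H3K4me3 peak met H3K4me1 (horizontal axis), by gene list, with 95% Wilson intervals and counts in brackets. The dashed line is the 21.8% of all such genes. Among the 14 lists shown, which leave out markers and olfactory receptors, intervals of 5 lie above it and those of the zinc finger and histone lists lie below it.

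Chromosome 19 stood apart in the counts. It held 243 H3K4me1 peaks beside 1155 H3K4me3 peaks, and 95 of the H3K4me1 peaks (39.1%) met H3K4me3, while 104 of the H3K4me3 peaks (9%) met H3K4me1. Chromosome 4 had the opposite balance, with 2266 H3K4me1 and 830 H3K4me3 peaks, of which 15.7% and 39.2% met. The share of H3K4me1 peaks that met H3K4me3 ran from 11.2% on chromosome 2 to 39.1% on chromosome 19. The low share for zinc finger genes stands beside the low number of H3K4me1 peaks on their chromosome, and the part of the latter was not tested.

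Few peaks lay at the edge of the rule. The 3 members that shared least had 9 and 11 bases in common with H3K4me3, on chromosome 7, and 26 on chromosome 1, and 13 members shared under 200. The 3 nearest peaks that were left out lay 38, 72 and 80 bases from H3K4me3, and 32 lay within 500 bases. The line between centred and flanking was less sharp, since 1230 members had their midpoint within 250 bases of an H3K4me3 edge.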

How the data were processed

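The data were the deposited peak lists of H3K4me1, H3K4me3, H3K27Ac and FAIRE from MDAMB231 cells, 1 list per assay, for which the authors combined 2 samples. The submitters' processing notes name TopHat, HOMER and hg19, while the authors' methods name BWA, Samtools, MACS for the histone marks and FindPeaks for FAIRE, each against an input. The score of a histone peak is, as deposited, -10 log10 of the MACS p-value, a reading taken from the values and the peak names. The height of a FAIRE peak is the deposited signal of the authors' peak finder, on a scale that is not stated. Lists were assigned to assays by their names and by counts equal to those the authors give. Read depth cannot be told from peak lists, so the precision given is that of counting peaks. Starts were read as BED coordinates counted from 0, which the files do not state.

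Peaks of chromosomes 1 to 22 were kept, and 5 duplicate FAIRE entries were dropped. Overlap meant at least 1 shared base. Start sites, exons and genes came from GENCODE 44 mapped to GRCh37, and sequence windows were 300 bases. Shares carry Wilson, differences Newcombe and densities Poisson 95% intervals, and width was held by Mantel-Haenszel weights over 10 classes. Python 3.11.15 was used with numpy 2.4.6, pandas 2.3.3, scipy 1.17.1 and matplotlib 3.10.9, and overlap counts on simulated peaks were checked against bedtools 2.31.1. The calculations were tested on simulated data.

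The members and the gene lists were chosen with earlier results of these data known. Regions are named as the 5 highest H3K4me1 scores of each class, and genes as up to 4 per list with the highest H3K4me1 score at an H3K4me3 peak that it met. Markers and genes whose H3K4me3 did not meet H3K4me1 are named outside this rule. Sequences come from the first region of each class that is not on chromosome 8 and whose window holds no exon. The sequence that these rules pick for the flanking class, at CORO1C, is not shown here. The GC box letters and the FAIRE comparison between sides of the start were chosen after the values were seen. Alternatives varied the score, shared length, chromosomes, class rule, counting window, FAIRE height, start type and peak width.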

Additional observations from a re-analysis of the deposited data

Results flagged for a closer look

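On chromosome X, which entered 1 alternative and none of the reported comparisons, 56 of 412 H3K4me1 peaks met H3K4me3 (13.6%, 95% interval 10.6 to 17.2), and 23 of the 56 were centred. What drew attention was peaks on a chromosome that the reported counts leave out. The difference from the share on chromosomes 1 to 22 was not tested.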

How the results depend on the processing

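Of 97 values under 14 alternatives, 80 stayed the same, 9 reversed, 3 weakened and 5 moved, and the cause was not tested. For differences and the transcribed-side share, the same means an unchanged direction and side of the threshold. For counts it means within a set factor of the reported count, and for medians within the interval of the reported median. Counts and medians beyond these bounds are those that moved. The differences in H3K27Ac, FAIRE, start sites and AP-1 letters between meeting and other peaks, and those between H3K4me3 peaks that did and did not meet H3K4me1, kept their direction, and the share on the transcribed side stayed between 65% and 69.7%. Outside these 97 values, the difference between meeting and other peaks in carrying both H3K27Ac and FAIRE turned from 3.58 to -6.57 points over width classes. Among the 97 values, the order of flanking and centred peaks was the fragile part. H3K27Ac turned to -10.0 points and FAIRE to -13.1 within 500 bases of the midpoint, and FAIRE to -7.22 over width classes, while 50% cover as the class rule took FAIRE to 19.2. Start sites, at 0.165 points and not called, turned to -2.65 with scores of 100 or more, -0.0213 with chromosome X, -5.55 by 50% cover, -15.5 within 500 bases, -2.29 for protein-coding starts and -8.44 over width classes; the values with scores of 100 or more, with chromosome X and for protein-coding starts were not called either. No longer called were H3K27Ac (1.05) and FAIRE (0.0483) between classes with scores of 100 or more, and FAIRE between meeting and other peaks with the taller FAIRE peaks (-0.847). Scores of 100 or more also left 1731 members, 674 of them centred, with a median width of 5234 bases and a median CpG ratio of 0.226, 50% cover left 1346 centred, and a margin of 250 bases left 1409. The 2 alternatives chosen after seeing the data, starts counted from 1 and letters at FAIRE midpoints, changed no call. No paired analysis was possible because the samples of an assay were merged into a single list, and leaving out a replicate was not run for the same reason.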

Other observations

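Without FAIRE anywhere in the peak, flanking peaks lay on the transcribed side in 430 of 502 cases (85.7%, 82.3 to 88.5), and with FAIRE in 461 of 797 (57.8%, 54.4 to 61.2). With FAIRE within 500 bases of the midpoint the sides were near even, 210 to 218 (49.1%, 44.4 to 53.8). These are the counts of the FAIRE comparison between sides, grouped by FAIRE, and that comparison was chosen after the values were seen.

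H3K4me3 midpoints without a start site held TGANTCA in 250 of 1150 cases (21.7%, 19.5 to 24.2) where they met H3K4me1 and in 267 of 2787 (9.58%, 8.54 to 10.7) where they did not. CpG-rich windows ran the other way, at 11.7% and 37.8%.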
